A study of Mus musculus with 20 samples.

Results

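The genes described here are 10 members of the RGS family, the regulators of G-protein signalling, measured in the brains of mice that received methamphetamine (Meth), expressed the HIV-1 protein Tat, or both. They are Rgs2, Rgs4, Rgs8 and Rgs16 of the R4 subfamily, Rgs7 and Rgs9 of the R7 subfamily, Rgs17 and Rgs20 of the RZ subfamily, and Rgs10 and Rgs14 of the R12 subfamily. The members were chosen by name, and every array probe whose RefSeq transcript belongs to 1 of them is shown, which gives 16 probes of 55681 on the array and 10 gene symbols of 20972. Rgs2, Rgs4, Rgs8 and Rgs20 have 2 probes each, Rgs9 has 3, and the other 5 members have 1.

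RGS proteins bind the GTP-loaded alpha subunit of a heterotrimeric G protein and speed the hydrolysis of its GTP, so that signalling from a receptor ends sooner. Dopamine, opioid, muscarinic and adenosine receptors of the striatum all signal through G proteins, and several RGS genes are strongly expressed there. Rgs9, through its striatal splice form, is the best known of them, and acts as a stable complex with the beta subunit Gnb5 and the membrane anchor Rgs7bp. Rgs2 and Rgs4 are small R4 proteins, and Rgs2 is also known as an early response gene of neurons.

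Each of the 20 arrays held RNA from the brain of 1 male mouse of C57BL/6J background, 5 mice in each of 4 groups. Tat- mice carried a Tet-binding protein under the GFAP promoter and no Tat, Tat+ mice carried the TRE promoter-Tat transgene in addition, and all of them, controls included, received doxycycline at 100 mg/kg for 7 days, which switches Tat on in the GFAP-expressing cells (astrocytes) of Tat+ mice. The groups without Tat are Tat-/Sal (saline for 7 days) and Tat-/Meth (2 mg/kg Meth for 7 days), and those with it are named Tat+/Sal and Tat+/Meth in the same way. The methods of the study add that every mouse, the saline groups too, was given a single challenge of 1 mg/kg Meth after 7 days of abstinence. Sampling followed 1 h later. By that account the contrasts compare mice with and without earlier Meth and not drugged with drug-free mice. The sources differ on the sampling time and on other points. The labels name perfusion 24 h after the last injection, the left hemisphere and an age of 6 to 7 weeks. The methods name 1 h after the challenge, the caudate putamen and an age of 3 to 5 months. Which time holds for these arrays was not settled, so this reading of the contrasts rests on the methods. All 10 striatal neuron markers examined (among them Drd1, Drd2 and Penk) were well above background on every array. Of 6 cortical and hippocampal markers, at least 4 in each group were so on all 5 arrays. These values do not decide between the named tissues. In such bulk RNA, fewer cells of a type and less RNA per cell cannot be told apart.

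The arrays came on 3 slides, and these were not balanced over the groups. Slide 1 held the 5 Tat-/Meth arrays and no others, slide 2 held the 5 Tat-/Sal arrays with Tat+/Meth replicates 1 to 3, and slide 3 held Tat+/Meth replicates 4 and 5 with the 5 Tat+/Sal arrays. In every comparison that involves Tat-/Meth, the group and the slide therefore cannot be told apart. The bright corner spots, a hybridisation control, had a log2 signal of 14.66 to 15.06 on slide 1, and of 16.80 to 17.42 elsewhere. Beside the members, 50.2% of the 15102 genes tested passed the test between Tat-/Meth and Tat-/Sal, and the count of members has to be read against that share.

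Levels are log2 processed fluorescence intensities, each array scaled to its 75th percentile, and the brightest probe stands for a gene. Signals of different probes depend on the probe as well as on the RNA, so levels are compared between groups and not between genes. All 16 probes were well above background on 5 of 5 arrays in every group and none was saturated on any array, so every member has a measured level throughout and all 10 entered the test. A gene passed at a Benjamini-Hochberg adjusted p under 0.05 over all 15102 genes in limma.

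**Figure D1:**
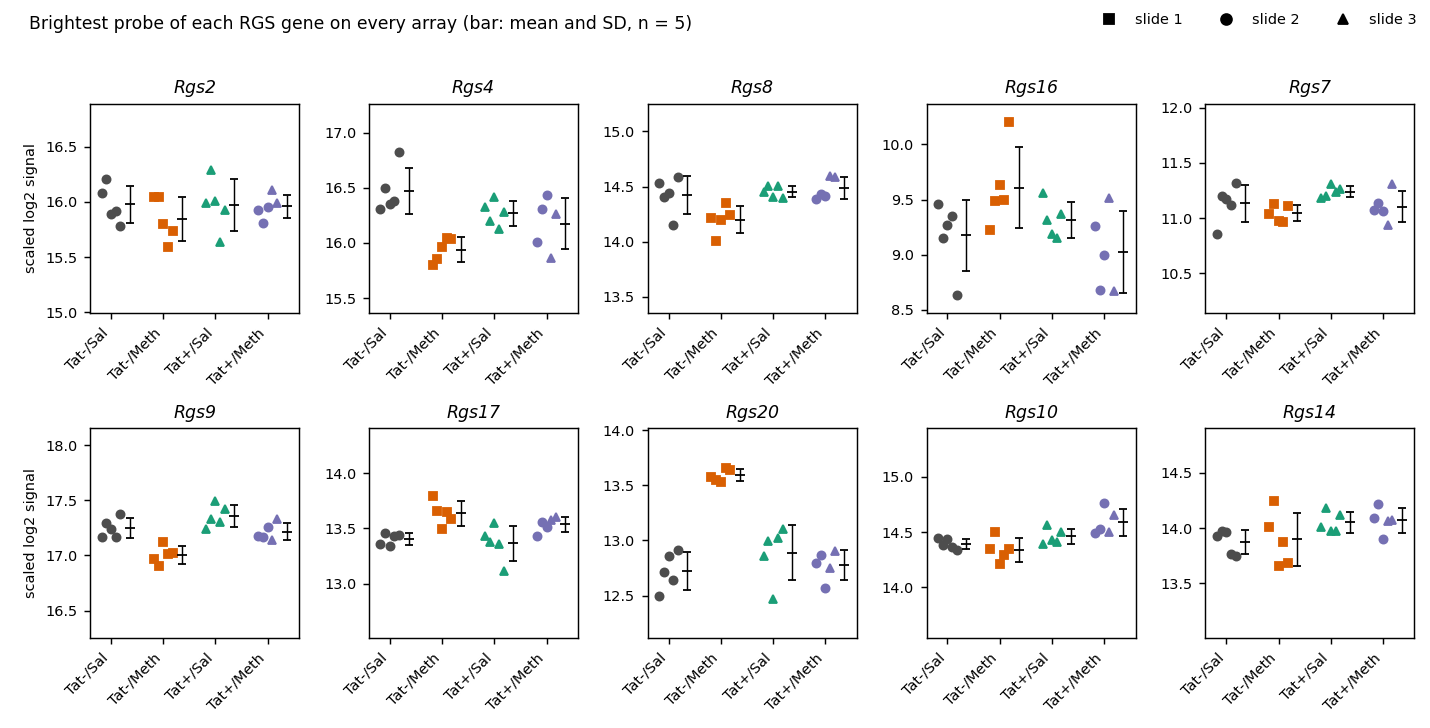
Scaled log2 intensity of the brightest probe of each of the 10 members (y axis, the same span in each panel) on every array, by group (x axis), with the marker shape giving the slide and the black bar the mean ± SD of 5 arrays. The 5 Tat-/Meth arrays of Rgs20 sit between 13.53 and 13.66, above all 15 other arrays, and the ranges of Rgs2 overlap in all 4 groups.

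The promoters of 4 genes are shown first, because Rgs2 and the early response gene Nr4a1 varied together from array to array and because Rgs4 and Rgs9 did so too, as described further on. The sequences are those of RefSeq on GRCm38.p6, the 250 bases before the transcription start, read 5′ to 3′ on the strand of the gene. Of the 10 members, 8 have an entry (Rgs14 and Rgs20 have none). Capitals mark exact matches to the core letters of the cyclic AMP response element (TGACG or its reverse complement CGTCA) and to the TATA box letters (TATAAA or TTTATA). Rgs2 lies at chr1:144004150-144004399 on the minus strand, Nr4a1 at chr15:101266596-101266845 on the plus strand, Rgs4 at chr1:169747643-169747892 on the minus strand and Rgs9 at chr11:109298182-109298431 on the minus strand.
Rgs2: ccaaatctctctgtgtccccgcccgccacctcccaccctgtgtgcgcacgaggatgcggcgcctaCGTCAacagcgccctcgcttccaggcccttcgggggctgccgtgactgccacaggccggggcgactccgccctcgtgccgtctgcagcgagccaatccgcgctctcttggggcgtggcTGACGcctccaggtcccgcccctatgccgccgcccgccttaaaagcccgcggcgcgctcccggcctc
Nr4a1: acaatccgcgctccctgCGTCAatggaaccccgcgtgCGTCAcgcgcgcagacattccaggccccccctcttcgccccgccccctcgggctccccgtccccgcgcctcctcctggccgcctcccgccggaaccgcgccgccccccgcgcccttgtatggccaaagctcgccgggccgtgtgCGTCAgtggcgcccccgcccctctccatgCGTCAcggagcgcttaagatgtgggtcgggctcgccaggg
Rgs4: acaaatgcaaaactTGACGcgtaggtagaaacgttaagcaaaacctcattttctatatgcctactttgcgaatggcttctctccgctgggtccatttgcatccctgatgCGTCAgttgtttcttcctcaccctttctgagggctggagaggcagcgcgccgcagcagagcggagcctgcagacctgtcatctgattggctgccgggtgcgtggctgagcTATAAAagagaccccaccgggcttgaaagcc
Rgs9: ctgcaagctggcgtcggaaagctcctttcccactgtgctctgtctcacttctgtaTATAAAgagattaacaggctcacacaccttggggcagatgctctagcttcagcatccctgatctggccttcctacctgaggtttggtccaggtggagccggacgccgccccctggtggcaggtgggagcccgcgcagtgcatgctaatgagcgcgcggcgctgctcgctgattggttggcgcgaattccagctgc

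The Rgs2 window holds 2 core matches, which begin 185 and 67 bases before the start, and 72.4% of its bases are G or C. The Nr4a1 window holds 4 core matches, at 233, 213, 69 and 40 bases before the start. The Rgs4 window also holds 2 core matches, at 236 and 141 bases, with a TATA match 31 bases before the start, and the Rgs9 window holds no core match and 1 TATA match at 195 bases. Of the 32851 promoter windows of the same length in the table, 17.8% hold a core match and 12.4% a TATA match. The full 8-letter element TGACGTCA, present in 1.55% of windows, was found in none of the members' windows. Rgs8 has a core match in 1 of its 3 annotated starts, and Rgs7, Rgs10, Rgs16 and Rgs17 have none. These are matches of letters and no measure of binding.

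By the account in the methods, setting Tat-/Meth against Tat-/Sal asks what earlier Meth left behind in mice without Tat. Between these groups 5 of the 10 members passed the test. The RZ members Rgs20 and Rgs17 were higher in Tat-/Meth (Rgs17 turned to -0.19 without scaling), and Rgs4, Rgs8 and Rgs9 were lower (Rgs8 turned to 0.081 when its probes were averaged). The share of all genes that passed was 50.2%, with 35% higher and 15.3% lower, so the members' share, 5 of 10, is that of the background. None of the 5 changed above 2-fold, against 6.85% of all genes. The median difference of the members was -0.073 and that of all genes 0.14.

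Rgs20, which acts mainly on Gz and other Gi-type alpha subunits, had the largest difference among the members. Its level was 12.49, 12.71, 12.86, 12.64 and 12.91 in the Tat-/Sal mice. It was 13.57, 13.55, 13.53, 13.66 and 13.63 in the Tat-/Meth mice. The groups did not overlap, and the 5 Tat-/Meth arrays lay closer together than the Tat-/Sal arrays. The Tat+/Sal mice read 12.86, 12.999, 12.47, 13.02 and 13.10 and the Tat+/Meth mice 12.79, 12.87, 12.56, 12.75 and 12.91, all of them in or near the Tat-/Sal range. Rgs20 was 0.87 higher in Tat-/Meth than in Tat-/Sal on the log2 scale (SE 0.10, 95% interval 0.65 to 1.08, 1.82-fold, adjusted p = 2.03e-06). Rgs17, the other RZ member, was 13.36, 13.46, 13.34, 13.43 and 13.44 in Tat-/Sal mice and 13.80, 13.66, 13.50, 13.65 and 13.58 in Tat-/Meth mice. All 5 Tat-/Meth arrays were above all Tat-/Sal arrays, by a smaller margin than for Rgs20. Its difference was 0.23 (adjusted p = 0.0102), and -0.19 without scaling.

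Rgs4, a regulator of Gi- and Gq-type alpha subunits, fell the most. The Tat-/Sal mice read 16.31, 16.50, 16.35, 16.38 and 16.82. The Tat-/Meth mice read 15.80, 15.85, 15.97, 16.04 and 16.04. The groups did not overlap, and the Tat-/Sal array of replicate 5 stood above the other 4 of its group. Rgs4 was lower in Tat-/Meth by -0.53 on the log2 scale (SE 0.11, 1.45-fold, adjusted p = 0.000515), and it passed again when each of the 20 arrays was left out in turn. It did not pass with scaling to the median (-0.41) or in the mean over its probes. Rgs9 read 17.16, 17.30, 17.24, 17.17 and 17.38 in Tat-/Sal mice and 16.96, 16.91, 17.13, 17.02 and 17.02 in Tat-/Meth mice. These groups did not overlap either, although the gap between their nearest arrays was small. The difference was -0.24 (adjusted p = 0.00276), and -0.037 after quantile normalization, where Rgs9 no longer passed.

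Rgs8, a brain-enriched R4 member that also acts on Gi-type subunits, was 14.15 to 14.59 in Tat-/Sal mice and 14.003 to 14.35 in Tat-/Meth mice. The groups overlapped, with 1 of 5 Tat-/Meth arrays below all Tat-/Sal arrays. Its difference of -0.22 passed (adjusted p = 0.0226), but not without Tat-/Meth replicate 2 (-0.17), Tat-/Sal replicate 1 or Tat-/Sal replicate 5, and it turned to 0.081 in the mean over its probes. Rgs16, an inducible R4 member, had the widest spread of the members. It read 9.46, 9.16, 9.27, 9.35 and 8.63 in Tat-/Sal mice and 9.22, 9.49, 9.63, 9.49 and 10.20 in Tat-/Meth mice. Of the 5 Tat-/Meth arrays, 4 were above all Tat-/Sal arrays, and replicate 5 was the extreme of each group, low in one and high in the other. The difference of 0.43 did not pass (SE 0.19, 95% interval 0.036 to 0.83, adjusted p = 0.0647).

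The other 4 members did not pass between Tat-/Meth and Tat-/Sal. Rgs2, which acts mainly on Gq, differed by -0.13 (95% interval -0.37 to 0.10, adjusted p = 0.328). Rgs7, the R7 relative of Rgs9, differed by -0.089 (-0.25 to 0.071, adjusted p = 0.342). Rgs10, a small R12 protein also known from microglia, differed by -0.056 (-0.19 to 0.073), and Rgs14, an R12 scaffold that also binds Ras-type GTPases, by 0.023 (-0.18 to 0.22). Over the 10 members, the groups did not overlap for 4 (Rgs4, Rgs9, Rgs17 and Rgs20), against 36.2% of all genes.

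**Figure D2:**
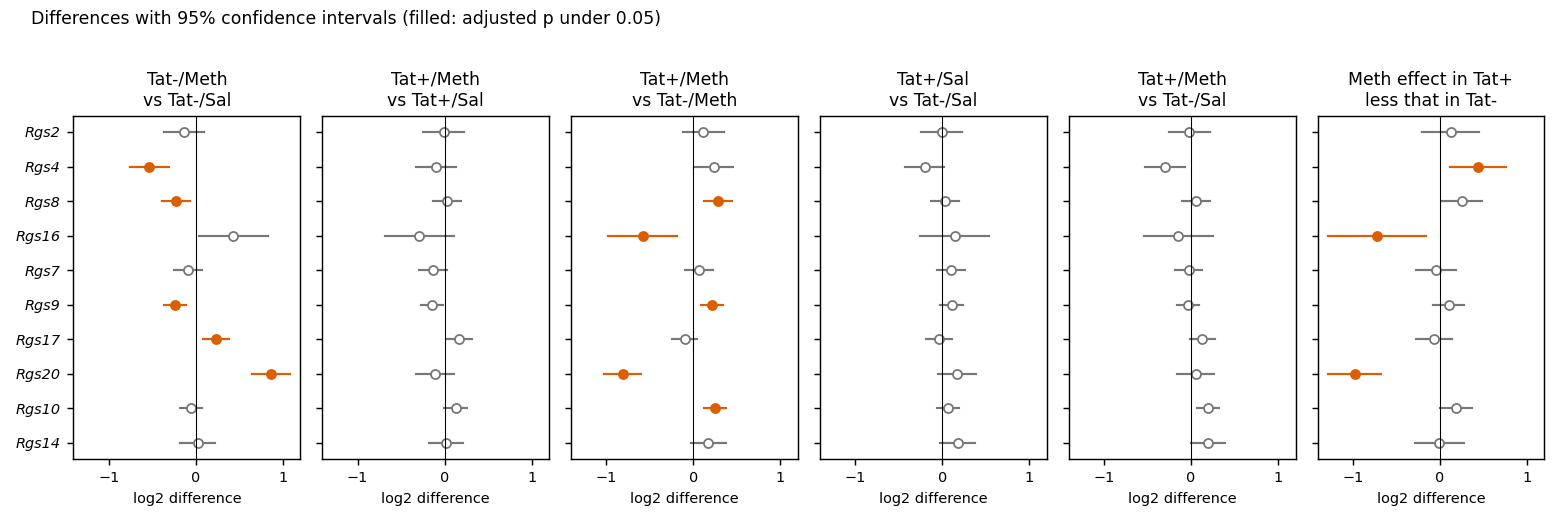
Log2 difference of the brightest probe of each member (points) with its 95% interval (bars) in 6 panels, the 5 comparisons of groups and the interaction, with filled orange points for an adjusted p under 0.05 over all 15102 genes. Filled points appear in the 2 comparisons with Tat-/Meth and in the interaction, 5, 5 and 3 of them, where Rgs17 turns to -0.19 without scaling in the first and Rgs9 to -0.064 after quantile normalization in the second.

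Other values moved with the same contrast. By signal, the 386 genes of a mean of at least 16 had a median difference of -0.088 (quartiles -0.35 and 0.071), and Rgs4 and Rgs9 are among them. The 3177 genes from 12 to 14, where Rgs20 and Rgs17 lie, had a median of 0.16 (quartiles 0.0065 and 0.30), and the 3241 genes from 8 to 10, where Rgs16 lies, had 0.17 (-0.061 and 0.35). For the 1358 genes from 14 to 16, where Rgs8 lies, the median was 0.094 (-0.042 and 0.22). Rgs20 and Rgs16 lay above, and Rgs4 and Rgs8 below, the quartiles of their own signal class, while Rgs9 and Rgs17 lay within them. Less the median of all genes, the difference was 0.73 for Rgs20, 0.091 for Rgs17, -0.67 for Rgs4, -0.38 for Rgs9 and -0.36 for Rgs8. That median was 0.26 with median scaling and -0.29 without scaling. The same subtraction then left 0.090 and 0.095 for Rgs17, and -0.67 and -0.67 for Rgs4. These settings differ from the main one by a constant per array, so near-equal values follow by construction. After quantile normalization, which is not such a constant, the subtraction left 0.68 for Rgs20, 0.045 for Rgs17, -0.54 for Rgs4, -0.18 for Rgs9 and -0.38 for Rgs8. Of the astrocyte markers, 2 of 4 (Aldh1l1 and Slc1a3) were higher in Tat-/Meth, beside 35% of all genes. The differences of the 4 ran from 0.19 to 0.31, beside a median of 0.14 for all genes. Their summed signal, which the brightest probes dominate, was log2 15.24 to 15.53 in Tat-/Meth against 15.12 to 15.18 in Tat-/Sal. All 4 markers were well above background on every array. Of the 10 striatal markers, Pdyn was higher (0.51) and Penk lower (-0.30), and their summed signal, which the brightest probes dominate, overlapped (19.78 to 19.87 against 19.77 to 19.98). Of 6 cortical and hippocampal markers, 2 were higher and 1 lower, beside 35% and 15.3% of all genes. Their median difference was -0.74. That median was -0.81 in Tat+/Sal and -0.94 in Tat+/Meth, each against Tat-/Sal, where none of the 6 passed. Not all 6 were well above background on every array. The part of cell makeup and of signal level in the members' differences was not tested.

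**Figure D3:**
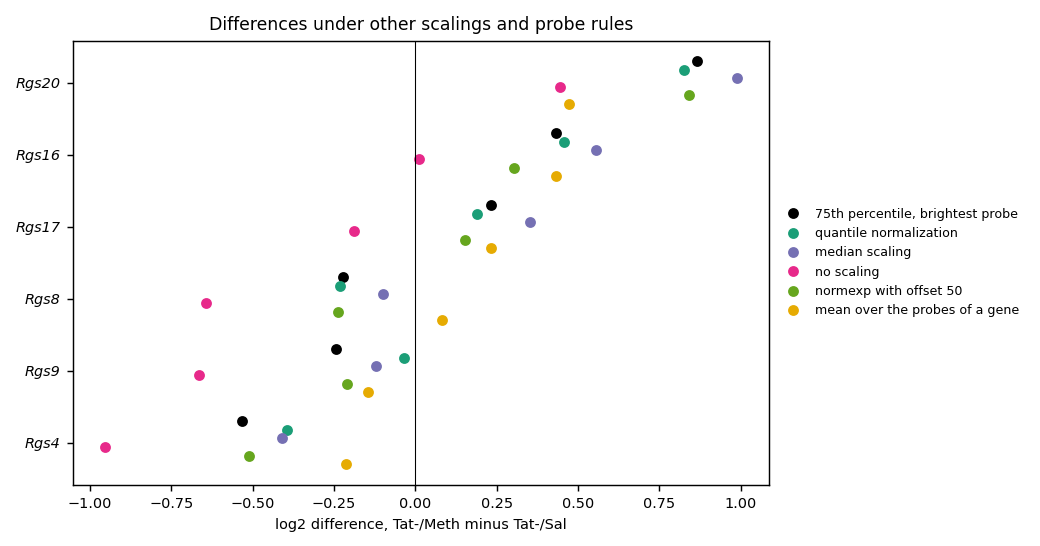
Log2 difference between Tat-/Meth and Tat-/Sal (x axis) of 6 members (y axis) under the main scaling to the 75th percentile and 5 other settings (scaling to the median, quantile normalization, unscaled values, background correction by normexp and the mean over a gene's probes). Rgs20 stays above 0 (lowest 0.45, without scaling) and Rgs4 below 0 in each setting, whereas Rgs17 turns to -0.19 without scaling and Rgs8 to 0.081 in the mean over probes.

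The second probes gave another picture for 4 of the 5 members that have them. When every probe was fitted on its own (50.3% of 31516 probes passed), Rgs2 was 0.49 higher in Tat-/Meth by its dimmer probe (adjusted p = 0.00696) and -0.13 by its brighter one (adjusted p = 0.335). Rgs4 was 0.11 by its dimmer probe (adjusted p = 0.592), beside the -0.53 of its brighter one. Rgs8 passed with both probes in opposite directions, -0.22 by the brighter (adjusted p = 0.0258) and 0.38 by the dimmer (adjusted p = 0.0294). The sign for Rgs2, Rgs4 and Rgs8 thus depended on which probe was read. Rgs20 was higher by 0.87 with its brighter probe, and its dimmer one differed by 0.080 (adjusted p = 0.627). The dimmer Rgs20 probe overlapped between the groups, at 11.35 to 11.82 in Tat-/Sal and 11.43 to 11.78 in Tat-/Meth. The 3 probes of Rgs9 differed by -0.24, -0.092 and -0.099, and the brightest alone passed (adjusted p = 0.00349, 0.254 and 0.508). The dimmest Rgs9 probe is assigned to another RefSeq transcript of the gene than the other 2.

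The gap between 2 probes of a gene on the same array does not depend on the scaling of that array by a constant, and it was compared between the groups. The brighter minus the dimmer probe of Rgs20 was 1.18 in Tat-/Sal and 1.96 in Tat-/Meth, a change of 0.79 (exact two-sided permutation test of 5 against 5 arrays, p = 0.00794, adjusted over the 6 probe pairs 0.0119). The gap narrowed by -0.64 for Rgs4, by -0.62 for Rgs2 and by -0.15 for the first pair of Rgs9, each with the same exact p of 0.00794, the smallest that 5 against 5 arrays can give. The gap of Rgs8 changed by -0.60 (exact p = 0.0238, adjusted 0.0286), and that of the brightest and dimmest Rgs9 probes by -0.14 (exact p = 0.183). The probes of 1 gene therefore changed unequally between these groups in 5 of 6 pairs. The share among all genes with more than 1 probe was not computed. The count therefore has no background, and whether it is particular to the members is not known. The gap does carry any shift that varies with signal level. The median difference of all genes was -0.088 at a signal of 16 or more and 0.17 from 10 to 12. The part of such a shift in the gaps was not tested. Within groups, over deviations from the group means on 20 arrays, the 2 brighter Rgs9 probes followed each other closely (Pearson's r 0.963, Spearman's rho 0.967). The 2 probes of Rgs4 did so less (0.769 and 0.776), then those of Rgs2 (0.585 and 0.588) and Rgs20 (0.399 and 0.304), and those of Rgs8 did not (-0.177 and -0.362).

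**Figure D4:**
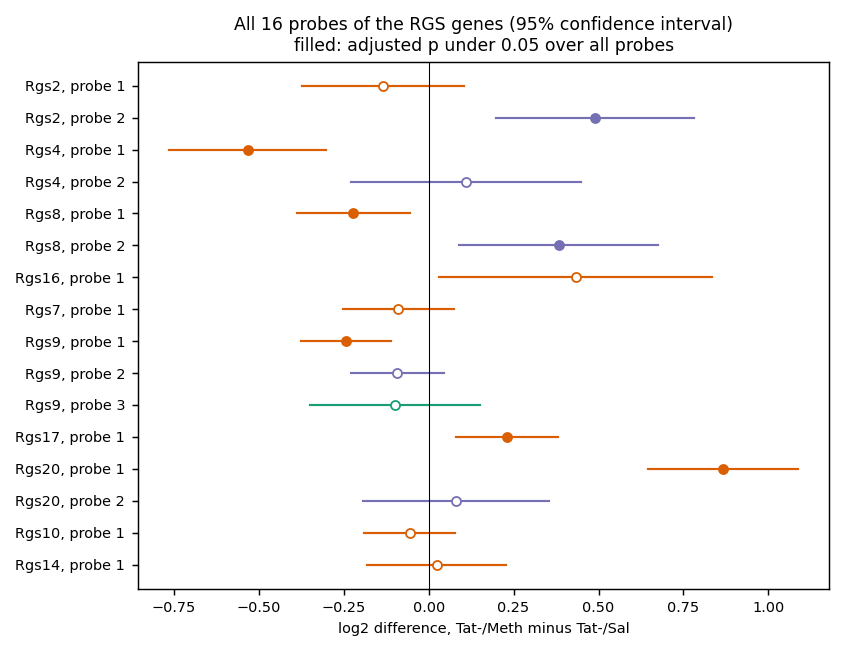
Log2 difference between Tat-/Meth and Tat-/Sal (x axis) for each of the 16 probes of the 10 members, with 95% intervals, filled where the adjusted p over all probes was under 0.05. The 2 probes of Rgs2, of Rgs4 and of Rgs8 lie on opposite sides of 0, and the Rgs20 probes lie at 0.87 and 0.080, while the single Rgs17 probe turns to -0.19 without scaling.

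The comparison of Tat+/Meth with Tat-/Meth asks how Tat alters the state after Meth. It shares the 5 Tat-/Meth arrays, and slide 1, with the comparison above, so its values are given beside those and are not a second observation. Here 5 of 10 members passed, against 54.4% of all genes (16% higher and 38.5% lower). Rgs8, Rgs9 and Rgs10 were higher in Tat+/Meth (Rgs9 turned to -0.064 after quantile normalization, Rgs8 to -0.070 in the mean over probes), and Rgs16 and Rgs20 were lower. None was past 2-fold, where 7.22% of all genes were. The median of the members was 0.14 and that of all genes -0.15.

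Rgs20 was lower in Tat+/Meth by -0.81 (1.76-fold, adjusted p = 3.54e-06), with all 5 Tat+/Meth arrays below all Tat-/Meth arrays. Its dimmer probe was lower too, by -0.32 (adjusted p = 0.0461 among all probes, of which 53.5% passed). The dimmer probe of Rgs2 was lower by -0.46 (adjusted p = 0.00922), with all 5 Tat+/Meth arrays below all Tat-/Meth arrays, beside 0.12 by its brighter probe, which did not pass. Rgs16 read 9.26, 8.68, 9.0004, 9.52 and 8.67 in Tat+/Meth mice and was lower by -0.58 (1.496-fold, adjusted p = 0.0147), although the groups overlapped and 3 of 5 arrays were below all Tat-/Meth arrays. Rgs8 was 14.39 to 14.60 in Tat+/Meth mice, above all Tat-/Meth arrays (difference 0.28, adjusted p = 0.00478), and its dimmer probe was lower by -0.42 (adjusted p = 0.0166). Rgs10 was 14.49, 14.53, 14.77, 14.50 and 14.66 in Tat+/Meth mice and 14.34, 14.50, 14.21, 14.29 and 14.35 in Tat-/Meth mice. Only 3 of 5 arrays of Rgs10 were above all Tat-/Meth arrays, and its difference of 0.25 passed (adjusted p = 0.00234). Of the 7 microglia markers, 1 was higher and 2 were lower in this comparison, with a summed signal of log2 16.08 to 16.33 in Tat+/Meth and 16.10 to 16.23 in Tat-/Meth. Rgs9 was 0.21 higher (adjusted p = 0.00707, -0.064 after quantile normalization), without overlap. Rgs4 differed by 0.23 and did not pass (adjusted p = 0.0746). The groups did not overlap for 3 members (Rgs8, Rgs9 and Rgs20), against 38% of all genes.

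The interaction, which subtracts the Meth effect of Tat- mice from that of Tat+ mice, was past the test for 3 members, against 36% of all genes (12.4% higher, 23.6% lower, and 7.44% also past 2-fold, with no member among these). Tat-/Meth, alone on slide 1, enters this term, so group and slide cannot be told apart in it. For Rgs20 it was -0.98 (SE 0.15, adjusted p = 5.05e-05), from a Meth minus saline difference of 0.87 in Tat- mice and -0.11 in Tat+ mice. It was -0.72 for Rgs16 (SE 0.27, adjusted p = 0.0422), from 0.43 and -0.29, and 0.44 for Rgs4 (SE 0.15, adjusted p = 0.0319), from -0.53 and -0.096. Rgs20 passed without each of the 20 arrays in turn, whereas Rgs4 lost the call in 8 of these 20 fits and Rgs16 in 10 of 20. Rgs4 also lost it after quantile normalization, with median scaling and in the mean over its probes. Rgs16 also lost it without scaling, without the limit on the mean signal and with the replicate number as a block. With no Tat-/Sal replicate 5, or no Tat+/Meth replicate 2, 3 or 5, or no Tat+/Sal replicate 2, 1 member passed. Rgs8 (0.25, adjusted p = 0.0796) and Rgs10 (0.18, adjusted p = 0.109) did not pass. Among all probes, of which 37% passed the interaction, the dimmer probe of Rgs8 did so at -0.67 (adjusted p = 0.0118), while those of Rgs20 (-0.38), Rgs2 (-0.40) and Rgs4 (0.047) did not.

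In the 3 comparisons that leave out Tat-/Meth, no member passed. Between Tat+/Meth and Tat+/Sal, the effect of Meth in mice with Tat, limma called 0% of all genes at the adjusted threshold, with 1838 genes and 2 members at an unadjusted p under 0.05. These were Rgs17, which differed by 0.17 (adjusted p = 0.348), and Rgs9, which differed by -0.14 (adjusted p = 0.358). No member was without overlap there, against 2.28% of all genes. For Rgs20 the interval was -0.33 to 0.10, which leaves out the size seen in Tat- mice.

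Between Tat+/Sal and Tat-/Sal, the effect of Tat alone, 1.42% of all genes passed and no member did. At an unadjusted p under 0.05 there were 3094 of the 15102 genes and no member. Rgs14 was the member whose groups did not overlap, as 4.85% of genes did not, at 13.92, 13.97, 13.96, 13.76 and 13.75 in Tat-/Sal mice and 14.01, 14.19, 13.97, 13.98 and 14.12 in Tat+/Sal mice. The lowest Tat+/Sal array lay just above the highest Tat-/Sal array, and the difference of 0.18 did not pass (adjusted p = 0.296). Rgs4 differed by -0.20 (adjusted p = 0.298). These groups also lay on different slides.

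Between Tat+/Meth and Tat-/Sal, the combination against neither, limma called 0% of all genes and no member, with 1177 genes and 2 members at an unadjusted p under 0.05. They were Rgs4 at -0.30 and Rgs10 at 0.19, both with an adjusted p of 0.640. For Rgs10 all 5 Tat+/Meth arrays were above all Tat-/Sal arrays, and the groups overlapped for the other 9 members. Of all genes, 1.68% were without overlap. Slide 2 holds both groups, and within it Rgs10 differed by 0.20 between 3 Tat+/Meth arrays and 5 Tat-/Sal arrays, which are among the arrays just compared and add no separate evidence. On the same slide, with exact two-sided permutation tests not adjusted over the 10 members, Rgs4 differed by -0.22 (exact permutation p = 0.25), Rgs16 by -0.19 (exact permutation p = 0.429) and Rgs20 by 0.017 (exact permutation p = 0.893). On slide 3, where 2 Tat+/Meth arrays stood beside 5 Tat+/Sal arrays, the differences were 0.22 for Rgs17, 0.14 for Rgs8, -0.12 for Rgs9 and -0.061 for Rgs20. The lowest unadjusted exact permutation p of the 10 members there was 0.0476, for Rgs8, the smallest that 2 against 5 can give.

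Within the groups, members varied together only in part. Over the deviations of the 20 arrays from their group means, given as a description, Rgs4 and Rgs9 had a Pearson's r of 0.644 (Spearman's rho 0.603), Rgs4 and Rgs7 0.538 (0.388), and Rgs7 and Rgs9 0.532 (0.415). Rgs16 ran against Rgs7 (r -0.557) and Rgs4 (r -0.459). Points of 1 array share its hybridisation and its scaling. Of 15054 genes, the 3 most alike to Rgs4 were Taok2 (r 0.921), Crmp1 (0.885) and Dut (0.874), and to Rgs9 they were Zbtb4 (0.879), Coch (0.859) and Diras2 (0.849). To Rgs16 they were Rhpn1 (0.886), Acads (0.848) and Mfap4 (0.846).

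For Rgs2 the gene most alike was Nr4a1, a nuclear receptor and immediate early gene (r 0.849, rho 0.845, n = 20), followed by Elf2 (0.808) and Slc16a9 (0.803). Without the 2 arrays farthest from the median the r with Nr4a1 was 0.789, and within slides 1, 2 and 3 it was 0.794, 0.824 and 0.954. Over the 14 immediate early genes measured, the median r with Rgs2 was 0.446, beside a median of 0.0808 over all genes, and it was 0.718 for Egr1, 0.686 for Arc and 0.484 for Fos. The other 9 members had median r values with the same 14 genes between -0.152 and 0.192. The dimmer Rgs2 probe had an r of 0.344 with Nr4a1. By its brightest probe, neither gene passed in any of the 6 comparisons, whereas the dimmer Rgs2 probe passed in both comparisons of groups with Tat-/Meth. Rgs2 averaged 15.98 ± 0.17 and 15.97 ± 0.23 in the saline groups without and with Tat, and 15.84 ± 0.20 and 15.96 ± 0.11 in the Meth groups (SD, n = 5). Nr4a1 averaged 15.96 ± 0.28 and 15.86 ± 0.26, and 15.83 ± 0.17 and 16.003 ± 0.21, in the same order. The promoter windows of both, printed above, hold core matches of the cyclic AMP response element, as 17.8% of all windows do. So does the window of Rgs4, whose median r with the 14 early genes was -0.0043. A link between these matches and the shared variation was not tested.

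**Figure D5:**
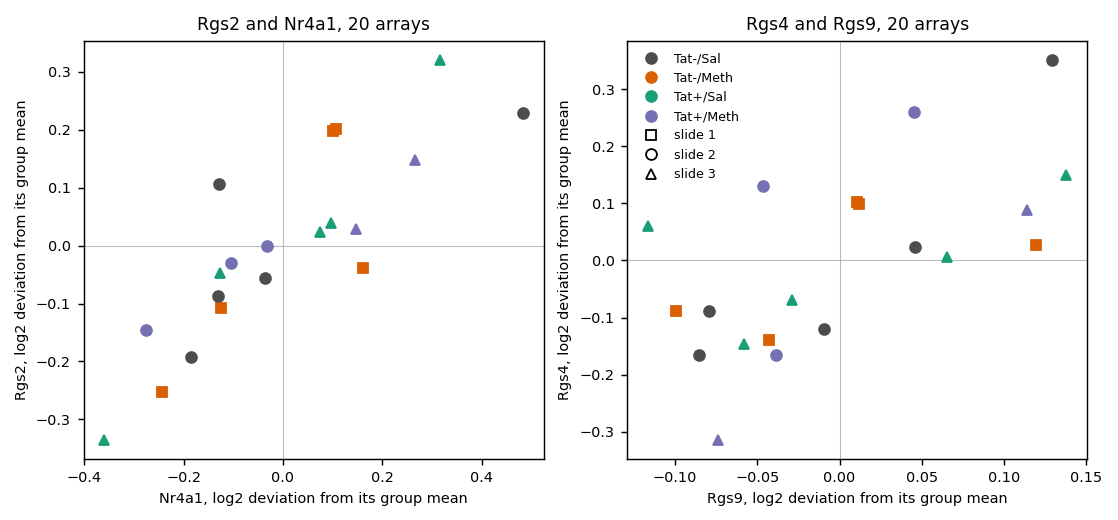
Deviation of each of the 20 arrays from its group mean (log2 units), for Rgs2 against Nr4a1 on the left and Rgs4 against Rgs9 on the right. The points of both panels rise together, with r 0.849 on the left and 0.644 on the right. Each group is centred on 0 by construction.

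The genes that work with the RGS proteins were counted in the same fit. Of the other RGS genes and R7 partners, 10 of 16 were tested, and between Tat-/Meth and Tat-/Sal 2 were higher (Rgs6 and Rgs19) and 2 lower (Rgs3 and Gpr158). Rgs3, an R4 relative, averaged 12.43 ± 0.044 in Tat-/Sal and 10.25 ± 0.071 in Tat-/Meth mice (SD, n = 5), a difference of -2.17, and 12.79 ± 0.90 and 12.75 ± 0.48 in Tat+/Sal and Tat+/Meth mice. This exceeded any difference of the 10 members. The partners of Rgs7 and Rgs9 did not pass, with 0.058 for Gnb5 (adjusted p = 0.496) and 0.032 for Rgs7bp (adjusted p = 0.806).

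Of the alpha subunits, the direct substrates of RGS proteins, 5 of 12 tested were higher in Tat-/Meth and 2 lower. The shares of all genes, 35% higher and 15.3% lower, are the background for this and the following lists. The lower ones were Gnai2 (-0.49, adjusted p = 0.000316) and Gnal (-0.22, adjusted p = 0.011), the olfactory-type subunit that couples dopamine D1 receptors to adenylyl cyclase in striatum. Gnaz, the Gz subunit on which the RZ proteins act, was 0.26 higher (adjusted p = 0.0204), and Gnao1 (-0.0095) and Gnaq (-0.064) did not pass. Of the beta and gamma subunits 5 of 13 were higher and none lower, and of the other regulators of G proteins 6 of 12 were higher and none lower. Of the effectors 2 of 13 were higher and 1 lower, the striatal adenylyl cyclase Adcy5 (-0.42, adjusted p = 9.04e-06). The list medians were 0.091, 0.19, 0.23 and 0.17 in this order, beside 0.14 for all genes. Of the immediate early genes 3 of 14 were higher (Junb, Npas4 and Btg2), while Fos (0.21), Egr1 (-0.10) and Arc (0.13) did not pass. Between Tat+/Meth and Tat-/Meth, Gnai2 (0.52), Gnal (0.17), Adcy5 (0.40) and Rgs3 (2.49) were higher, and Gnaz was lower (-0.25). No gene of these lists passed in any of the 3 comparisons without Tat-/Meth.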

How the data were processed

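The deposited values are intensity readings of 20 one-colour arrays, background-subtracted processed signals that the authors' feature extraction software wrote for each of 62976 spots. Per the labels the dye was Cy3, whereas the methods of the study name Cy5 and another scanner. Control spots (3671) and spots marked as outliers (4278 over all arrays) were left out, spots of a probe were averaged, and each array was scaled on the log2 scale to its 75th percentile. Probes were named through their RefSeq accession, looked up in a RefSeq gene table without use of coordinates (20972 symbols). The brightest probe stood for a gene, and a gene was tested at a mean of at least 6 in 1 group or more (15102 genes).

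All groups were fitted together in limma 3.58.1 (R 4.3.3) with 1 mean per group and Benjamini-Hochberg adjustment, and every probe was fitted in the same way (31516 probes). Mice are the replicates, and 5 per group limit the precision. Exact permutation tests were run in R within slides 2 and 3 and for probe pairs. Values were prepared, promoters searched and figures drawn in Python 3.11.15 (numpy 2.4.6, pandas 2.3.3, matplotlib 3.10.9). The fit was tested on simulated data. Alternatives covered scaling, background correction, filters, probes, slide, replicate number, test, threshold and each array left out. Same-numbered arrays are different mice, so the numbers pair nothing. The members and gene lists were chosen with earlier results of these data known. All members, the partners Gnb5, Rgs7bp, Gnai2, Gnao1, Gnaq, Gnal, Gnaz and Adcy5, and the early genes Fos, Egr1 and Arc are named, with at most 2 of the largest changes per list and the 3 genes most alike to 4 members. Names in counts of 5 or fewer, and Rgs3's levels, were added after values were seen.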

Additional observations from a re-analysis of the deposited data

Results flagged for a closer look

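The effect of Meth in Tat+ mice differed from that in Tat- mice for 3 of 10 members by the interaction term, as it did for 36% of all genes, and Tat-/Meth had slide 1 to itself, so group and slide cannot be told apart in each. The difference was -0.98 for Rgs20, -0.72 for Rgs16 and 0.44 for Rgs4 on the log2 scale. With 1 array left out in turn, Rgs16 lost the call in 10 of 20 fits and Rgs4 in 8 of 20, and Rgs20 in none. Of the 64 sets of 5 arrays (16 probes in 4 groups) examined for an array far from the others of its group, none held one, where chance alone marks about 5%.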

How the results depend on the processing

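Between Tat-/Meth and Tat-/Sal the count of 5 members became 2 with median scaling, 8 without scaling, 2 with the mean over probes, 3 at an adjusted p under 0.01 and 0 past 2-fold, and ranged from 4 to 6 with 1 array left out. Between Tat+/Meth and Tat-/Meth it went from 5 to 2, 8 and 3 in the first 3 of these settings and to 0 past 2-fold (5 to 6 with an array left out). For the interaction, 3 became 8 without scaling, 1 at an adjusted p under 0.01 and 0 past 2-fold (1 to 4). Of all genes, 4249 of 15121 passed with median scaling, 7259 of 15121 without scaling, 7048 of 14737 with the mean over probes and 5510 of 15102 at an adjusted p under 0.01 in the first comparison. The first 3 of these settings gave 5935, 5617 and 7661 in the second, and for the interaction 5953 passed without scaling and 3478 at an adjusted p under 0.01. In the 3 comparisons without Tat-/Meth the count was 0 in every setting (0 to 0), the slide as a fixed block included, which could not be fitted with Tat-/Meth. Among values past the test in the main or the other setting, the direction turned for Rgs8 with the mean over probes (0.081 in Tat-/Meth vs Tat-/Sal, -0.070 in Tat+/Meth vs Tat-/Meth), for Rgs9 in Tat+/Meth vs Tat-/Meth after quantile normalization (-0.064), and without scaling for Rgs17 and Rgs14 in Tat-/Meth vs Tat-/Sal (-0.19 and -0.40) and for Rgs7 and Rgs17 in the interaction (0.44 and 0.42). The cause was not tested. The change of Rgs20 between Tat-/Meth and Tat-/Sal passed in 15 of 16 settings (0.45 to 0.99), all but the 2-fold limit, and that of Rgs4 in 13 of 16 (-0.95 to -0.21). Several of the 16 change the test or the threshold and leave the difference as it was. No setting read a dimmer probe alone. That probe differed by 0.080 for Rgs20 and 0.11 for Rgs4, and neither passed. Of 2170 single-gene values, 2076 kept their side of the threshold and, where past it, their direction. Among these, 75 values that passed in neither setting changed sign, such as Rgs2 between Tat-/Meth and Tat-/Sal (-0.13, up to 0.18).

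With the replicate number as a block, 5, 0, 5, 0 and 0 members passed in the 5 comparisons of groups and 2 for the interaction, where Rgs16 was lost, and no other call of a member changed. Mean correlations of same-numbered arrays were 0.008 to 0.126, and 7 of 20 arrays correlated best with their own number. Normexp was run on the median foreground, as no mean signal was in the files used here.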
